A study of Mus musculus with 9 samples.

Results

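The genes described here are 41 inflammatory genes, chosen by name: chemokines, atypical chemokine receptors, complement factors, acute phase proteins, components of the NF-κB pathway and leukocyte adhesion molecules. They are 41 of the 55416 genes counted by RNA-Seq in 9 libraries of cultured AdvSca1-SM cells. By role they were 8 CC chemokines, 9 CXC chemokines, 1 CX3C chemokine, 2 atypical chemokine receptors, 6 genes of complement activation, 3 of complement regulation, 5 acute phase genes, 5 NF-κB components or inhibitors and 2 adhesion molecules. Of the 41, 32 passed edgeR's filter on low counts, as did 14879 genes in all, and only these were tested. Among the 32, 29 passed the filter in all 3 groups, *Lcn2* passed in 2, and *Ccl11* and *Ackr4* passed through the Stem group alone, so those 2 genes entered the tests because they were high there.

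AdvSca1-SM cells are vascular progenitors that descend from smooth muscle and express the surface protein Sca1. They were sorted as YFP+ and Sca1+ cells from the aortas and carotids of SM22α-Cre-YFP mice, pooled, at 8 weeks of age, in which the smooth muscle promoter SM22α drives the Cre recombinase that switches on the YFP label. The cells were expanded in αMEM with 10% FBS, 1 ng/mL basic fibroblast growth factor and 5 ng/mL epidermal growth factor, and all 9 libraries came from cells given 0.1% DMSO and harvested after 72 hours. Stem cells received no further agent, TGF-β cells received 5 ng/mL TGF-β1 and Both cells received 5 ng/mL TGF-β1 with 50 μM PFI-3, a small-molecule ligand of the Brg1 bromodomain (Brg1 is a chromatin remodeling ATPase), with 3 libraries per group. The cells to be treated were growth-arrested for 24 hours in 0.1% FBS and switched to DMEM with 0.1% FBS, whereas the study's methods describe the Stem group as kept in stem cell media. The labels give 1 growth and treatment text for all 9 libraries, with the same growth arrest and no separate medium for Stem, so the medium of the Stem libraries is not settled. If it was stem cell medium, medium and TGF-β1 cannot be told apart between Stem and TGF-β, whereas PFI-3 is what sets Both apart from TGF-β. The study describes the 3 libraries of a group as independent replicates, and since the mice were pooled, the p-values measure the spread between these cultures and not between animals.

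Chemokines are small secreted proteins that draw leukocytes along a gradient, and atypical chemokine receptors bind and clear them without the usual G protein signal. Complement is a protease cascade in which C1r and C1s start the classical pathway, C4 and C3 are cleaved in turn, and inhibitors such as C1 inhibitor, CD55 and CD59 hold it back. NF-κB dimers such as p50 with RelA are held in the cytoplasm by IκBα until a stimulus frees them, and fibroblasts of the vessel wall are known to make chemokines, complement and acute phase proteins in response.

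Promoter sequences of 29 of the 41 genes were found in a RefSeq table of the mouse build GRCm38.p6, and the 250 bases before the start of 5 of them are shown because their letters and their levels can be set side by side. Capitals mark matches on either strand to GGNNNTTCC, a loose form of the NF-κB binding motif. *Cxcl1*, a neutrophil chemokine, and *Nfkbia*, which encodes IκBα, fell between Stem and TGF-β. *Icam1*, an adhesion molecule for leukocytes, and *Saa3*, an acute phase protein, were lower again in Both. *Cxcl10*, a T cell chemokine, had at most 1 count in any library.
Cxcl1 (chr5:90890995-90891244, plus strand): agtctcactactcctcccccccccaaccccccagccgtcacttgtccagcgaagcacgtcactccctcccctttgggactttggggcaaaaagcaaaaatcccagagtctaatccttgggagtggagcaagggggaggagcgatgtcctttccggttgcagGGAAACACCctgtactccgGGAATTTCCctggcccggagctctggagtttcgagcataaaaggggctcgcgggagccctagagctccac
Cxcl10 (chr5:92348890-92349139, minus strand): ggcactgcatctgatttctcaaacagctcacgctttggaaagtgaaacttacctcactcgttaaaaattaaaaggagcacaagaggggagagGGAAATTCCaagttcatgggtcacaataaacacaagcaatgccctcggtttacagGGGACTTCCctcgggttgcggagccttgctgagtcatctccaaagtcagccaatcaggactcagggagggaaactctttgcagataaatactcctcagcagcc
Nfkbia (chr12:55492648-55492897, minus strand): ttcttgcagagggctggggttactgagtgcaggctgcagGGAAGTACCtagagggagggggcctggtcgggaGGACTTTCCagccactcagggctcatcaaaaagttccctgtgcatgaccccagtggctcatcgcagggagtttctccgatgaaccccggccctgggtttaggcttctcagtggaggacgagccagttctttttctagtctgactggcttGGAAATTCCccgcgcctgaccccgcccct
Icam1 (chr9:21015690-21015939, plus strand): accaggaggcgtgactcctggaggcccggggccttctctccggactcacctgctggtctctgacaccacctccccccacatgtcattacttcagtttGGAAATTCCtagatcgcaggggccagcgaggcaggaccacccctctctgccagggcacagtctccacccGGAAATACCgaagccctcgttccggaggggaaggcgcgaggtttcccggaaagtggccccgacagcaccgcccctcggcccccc
Saa3 (chr7:46715677-46715926, minus strand): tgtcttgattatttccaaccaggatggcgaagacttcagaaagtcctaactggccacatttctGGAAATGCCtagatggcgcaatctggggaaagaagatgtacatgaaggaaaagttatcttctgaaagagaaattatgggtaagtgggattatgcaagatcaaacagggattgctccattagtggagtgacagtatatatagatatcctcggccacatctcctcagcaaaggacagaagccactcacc

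Relative to the start, the matches began at bases -89 and -70 in *Cxcl1*, -158 and -103 in *Cxcl10*, -211, -178 and -29 in *Nfkbia*, -153 and -84 in *Icam1*, and -187 in *Saa3*. *Cxcl1* at -70 carried GGAATTTCC, which matches the motif on both strands, and *Icam1* at -153 and *Nfkbia* at -29 both carried GGAAATTCC, which does so too. The motif was found in 20 of the 33 listed promoters of these genes (60.6%; some genes have more than 1), which belong to 16 of the 29 genes, and in 5144 of all 32851 promoters of the table (15.7%). The listed windows of *C1s1* overlap and hold the same match. The genes were chosen by name, with NF-κB components among them, so these shares describe the list and were not tested. *C3*, *Lcn2*, *Cxcl12*, *Ackr3*, *Ptx3*, *C1ra*, *Ccl8* and *Rela* had no match in this window. An interferon response motif, GAAANNGAA, was searched on both strands as well and was found in 7 of the 33 promoters (21.2%) against 2342 of all promoters (7.13%), among them *Cxcl10* at -213 and *Saa3* at -125. These matches are letters in a window and were not compared with any binding data.

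The libraries held between 35686291 and 47741128 counts. Levels are given as normalized counts, that is counts scaled to the mean library of 41184338 after TMM normalization, on which scale 3 counts, taken here as the floor of detection, are worth between 2.63 and 3.26. Across genes, libraries of the same group correlated with a Spearman coefficient of 0.9947 or more, and genes are not independent replicates. Log2 fold changes are the later named group minus the earlier one, with standard errors (SE) and adjusted p-values from the quasi-likelihood test of edgeR, fitted once to all 9 libraries and adjusted by Benjamini-Hochberg over the 14879 genes. A gene was called when its adjusted p was below 0.05 and it changed over 2-fold, and a second count used the adjusted p alone. In bulk RNA, fewer cells that make a transcript and less transcript per cell cannot be told apart.

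The 41 genes together took a mean of 0.926% of a Stem library's counts, 0.258% of a TGF-β library's and 0.297% of a Both library's, and the 3 libraries of a group stayed within 0.882% to 0.949%, 0.252% to 0.268% and 0.286% to 0.313%. Most of the Both value was *Cxcl12*, for without it the shares were 0.473%, 0.132% and 0.124%. From Stem to TGF-β, 20 of the 32 genes that could be tested were called lower, 2 were called higher, *Ackr3* and *Cxcl14*, and 10 were not called, where 14.5% of all tested genes were called lower and 10.6% higher. By the adjusted p alone 26 were lower and 4 higher, where 37.7% of all tested genes were lower and 37.3% higher. The median log2 fold change of the 32 genes was -2.03, and that of all tested genes was -0.00275. The 20, and the 26 at the adjusted p alone, include *Ccl11* and *Ackr4*, which the filter kept only for their Stem level.

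Between TGF-β and Both the changes were smaller and ran in both directions. Called lower were 3 genes, *Ccl9*, *Saa3* and *Lcn2*, and 0 were called higher, where 0.47% of all tested genes were called lower and 0.161% higher. DESeq2 also called 3 lower and 0 higher, and at an unadjusted p below 0.05 in edgeR 14 were lower and 6 higher, 1 of them, *Ackr4*, past 2-fold. By the adjusted p alone 11 were lower and 3 higher, *Cxcl12*, *Ackr3* and *Serping1*, against 5.38% and 3.54% of all tested genes, and 18 did not pass. The median log2 fold change was -0.21, also without *Ccl11*, which was at the floor in both groups. From Stem to Both 21 of the 32 genes were called lower and 1, *Ackr3*, was called higher, where 13.2% of all tested genes were called lower and 9.55% higher, and the median was -2.08. The 21 also include *Ccl11* and *Ackr4*, which the filter kept only for their Stem level. These comparisons share libraries, so their values are given side by side and not correlated.

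**Figure D1:**
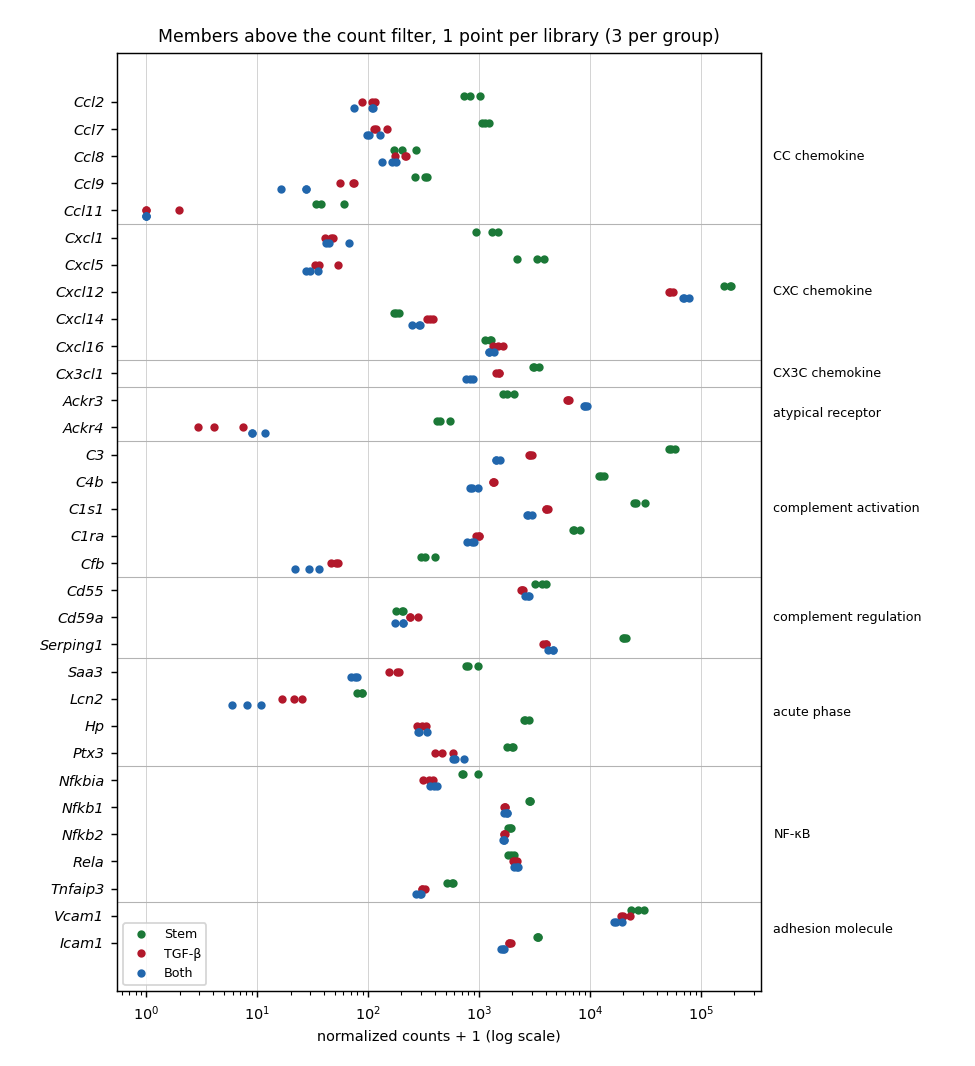
Normalized counts plus 1 (log scale) of the 32 tested genes, grouped by role, with 1 point for each of the 3 libraries of Stem, TGF-β and Both. In 26 genes every TGF-β library lies below every Stem library, in 4 every TGF-β library lies above, and *Ackr4* and *Ccl11* drop to the floor of detection or close to it. Of all 14879 tested genes, every TGF-β library lay below every Stem library in 5762 and above in 5665.

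*Ccl2* and *Ccl7*, CC chemokines that draw monocytes, were abundant in Stem and lower in TGF-β. *Ccl2*, the main monocyte chemoattractant, was at 1022, 734.5 and 837.3 normalized counts in the Stem libraries, 115.5, 87.22 and 107.4 in TGF-β and 107.1, 73.04 and 109.7 in Both. *Ccl7*, its neighbor in sequence and receptor use, was at 1231, 1129 and 1065 in Stem, 147.8, 111.6 and 118.1 in TGF-β and 127.0, 101.7 and 96.55 in Both. Neither gene's TGF-β libraries came near the Stem range, whereas TGF-β and Both overlapped. From Stem to TGF-β *Ccl2* fell by 3.07 on the log2 scale (SE 0.159, adjusted p = 3.97e-09) and *Ccl7* fell by 3.18 (SE 0.112, adjusted p = 1.16e-10). From TGF-β to Both their log2 fold changes were -0.09 (95% interval -0.51 to 0.34) and -0.21 (-0.51 to 0.09).

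*Ccl9*, a chemokine that acts through CCR1, fell at both steps. It was at 322.4, 265.1 and 336.5 normalized counts in the Stem libraries, 55.03, 73.02 and 72.25 in TGF-β and 15.31, 26.65 and 26.33 in Both. The 3 groups did not overlap. It fell by 2.2 (SE 0.157, adjusted p = 7.94e-08) and then fell by 1.56 (SE 0.223, adjusted p = 0.00120), so that Both lay 3.76 below Stem on the log2 scale.

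*Ccl8* departed from its relatives, for its TGF-β libraries (212.6, 175.4 and 219.7 normalized counts) lay within the range of the Stem libraries (269.1, 199.9 and 170.9). Its log2 fold change was -0.08 (SE 0.164, adjusted p = 0.687), and the sign turned when Stem replicate 1 (0.13) or TGF-β replicate 2 (0.03) was left out. From TGF-β to Both it was -0.35 (95% interval -0.71 to 0.02). *Ccl11*, the eosinophil chemokine eotaxin, was at 59.67, 32.6 and 36.78 in Stem, while TGF-β held 0, 0 and 0.976 and Both held 0 in every library. Against the floor of 3 counts per library both treated groups were at least 13.2-fold lower than Stem.

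The neutrophil chemokines showed the steepest falls of the CXC group. *Cxcl5* was at 3846, 2187 and 3339 normalized counts in the Stem libraries, 52.88, 35.5 and 32.22 in TGF-β and 34.21, 26.65 and 28.96 in Both. *Cxcl1* was at 1488, 941 and 1314 in Stem, 45.32, 47.67 and 40.03 in TGF-β and 43.22, 40.47 and 66.7 in Both. The Stem libraries varied among themselves, with replicate 2 lowest for both genes, yet each stood far above every treated library. *Cxcl5* fell by 6.29 (SE 0.244, adjusted p = 2.68e-10) and *Cxcl1* fell by 4.81 (SE 0.207, adjusted p = 6.73e-10). With PFI-3 added their log2 fold changes were -0.41 (95% interval -1.38 to 0.57) and 0.19 (-0.47 to 0.85). *Cxcl2*, their near relative, did not pass the filter, with 6, 5 and 3 counts in Stem, 0 in each TGF-β library and 2, 1 and 0 in Both.

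*Cxcl12*, the ligand of CXCR4 and of the atypical receptor ACKR3, was the most counted of the 41 genes. It was at 160800, 188600 and 182500 normalized counts in the Stem libraries, 52450, 56150 and 51440 in TGF-β and 69400, 78570 and 70250 in Both. The groups did not overlap, and Both lay between the other two. *Cxcl12* fell by 1.73 from Stem to TGF-β (SE 0.0690, adjusted p = 3.42e-10) and rose by 0.45 from TGF-β to Both (SE 0.0673, adjusted p = 0.00166), short of 2-fold. Per kilobase of exon it stood at 21690, 6525 and 8896 normalized counts in the Stem libraries, TGF-β and Both, at percentiles 99.9, 98.8 and 99.2 of 14843 tested genes with a length.

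*Ackr3*, which scavenges *Cxcl12*, moved up at both steps. Its values were 1649, 2082 and 1779 normalized counts in the Stem libraries, 6498, 6183 and 6420 in TGF-β and 9474, 8828 and 8980 in Both, with no overlap between groups. It rose by 1.79 (SE 0.0702, adjusted p = 2.92e-10) and by a further 0.51 (SE 0.0663, adjusted p = 6.04e-04), and was 2.31 higher in Both than in Stem. The count ratio of *Cxcl12* to *Ackr3* was 96.9 ± 6.02 for Stem, 8.39 ± 0.600 for TGF-β and 8.02 ± 0.805 for Both (SD, n = 3), so the 2 treated groups lay within their spread of each other. *Cxcr4*, the signaling receptor of *Cxcl12*, was not tested, with a mean of 1.07 normalized counts for Stem, 2.35 for TGF-β and 3.93 for Both.

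*Ackr4*, which clears CCL19, CCL21 and CCL25, went the other way. It was at 440.7, 415.1 and 551.7 normalized counts in the Stem libraries, 6.475, 3.042 and 1.953 in TGF-β and 10.8, 7.896 and 7.899 in Both. The log2 fold change of *Ackr4* between Stem and TGF-β was -6.92, and its TGF-β libraries were at or near the floor. Only the Stem libraries passed the filter, where the gene was high, so no test is given for that step. The Both libraries all lay above the TGF-β libraries, but at a log2 difference of 1.22 (95% interval 0.14 to 2.29) the test did not pass (adjusted p = 0.154).

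Among the 41 genes, *Cxcl14* and *Cxcl16* were the chemokines that were higher in TGF-β than in Stem. *Cxcl14*, a chemokine of fibroblasts and epithelia, was at 170.6, 179.3 and 188.2 normalized counts in the Stem libraries, 383.1, 341.8 and 358.3 in TGF-β and 286.3, 249.7 and 294.0 in Both. The 3 groups did not overlap, and Both lay between Stem and TGF-β. It rose by 1.01 (SE 0.0903, adjusted p = 6.35e-07), which is at the 2-fold line, and fell by 0.38 with PFI-3 (SE 0.0847, adjusted p = 0.0163). The first change was below 2-fold with scaling by total counts (0.89), with a mean of at least 10 counts (0.99), and without Stem replicate 1 (0.98) or TGF-β replicate 1 (0.97), and it was not called by the TREAT test. The call with PFI-3 was lost when TGF-β replicate 1, TGF-β replicate 3 or Both replicate 2 was left out. *Cxcl16*, a membrane-anchored ligand of CXCR6, rose from 1220 ± 84.0 to 1488 ± 144 (SD, n = 3), a log2 change of 0.29 (adjusted p = 4.69e-03) that became 0.16 (adjusted p = 0.0924) when libraries were scaled by total counts.

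*Cx3cl1*, the membrane-bound fractalkine that tethers monocytes, fell at both steps. It was at 3099, 3142 and 3454 normalized counts in the Stem libraries, 1520, 1505 and 1436 in TGF-β and 824.7, 884.4 and 765.4 in Both. The replicates were tight and the groups far apart. It fell by 1.12 (SE 0.0581, adjusted p = 3.92e-09) and again fell by 0.85 (SE 0.0611, adjusted p = 1.61e-05), and in Both it was 1.97 below Stem.

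**Figure D2:**
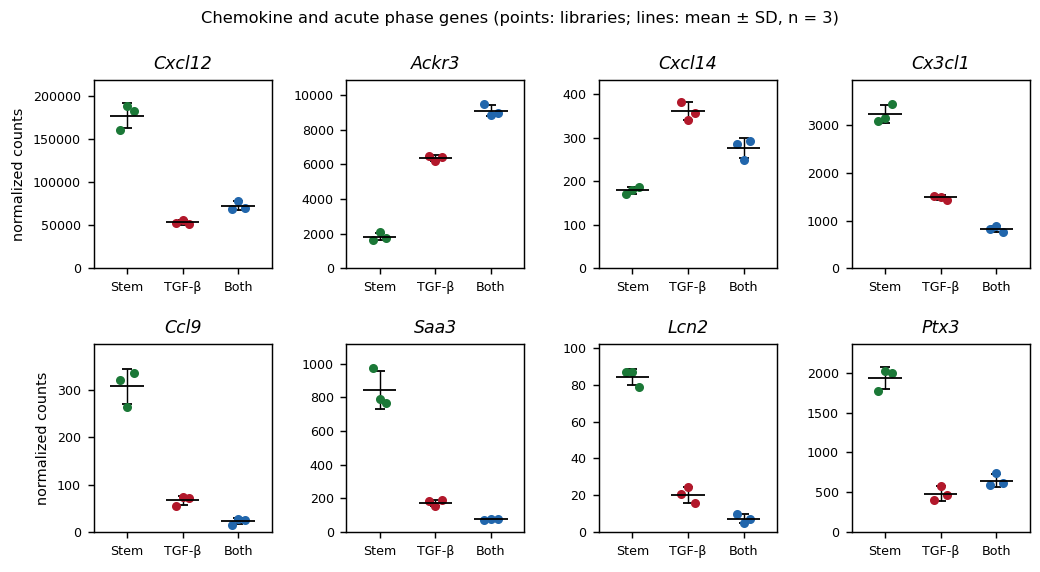
Normalized counts of 8 chemokine, receptor and acute phase genes in Stem, TGF-β and Both, with 1 point per library and lines for the mean ± SD (n = 3). *Ackr3* climbs and *Cx3cl1*, *Ccl9*, *Saa3* and *Lcn2* descend from group to group, while *Cxcl12* in Both (69400 to 78570) lies between TGF-β and Stem.

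Of the other chemokines listed, *Ccl5*, *Ccl19*, *Ccl20*, *Cxcl10* and *Cxcl13* had at most 3 counts in every library and *Cxcl9* at most 4. These ligands of T cells, B cells and dendritic cells were not detectable at this depth or lay near the floor. The 2 remaining untested genes, *Cfd*, the adipose complement factor D, and *Saa1*, a liver acute phase protein, had 0 counts in all 9 libraries. A count of 0 allows up to 3 counts per library.

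Genes of complement activation took 0.262% of the counts of Stem, 0.0222% of those of TGF-β and 0.0144% of those of Both. All 5 that were tested were called lower in TGF-β than in Stem, where 14.5% of all tested genes were. *C3*, on which all complement pathways converge, was at 51360, 58290 and 54210 normalized counts in the Stem libraries, 3028, 2821 and 2891 in TGF-β and 1437, 1435 and 1544 in Both. *C4b* was at 12610, 13460 and 12150 in Stem, 1356, 1350 and 1338 in TGF-β and 873.3, 984.1 and 826.8 in Both. For both genes the 3 groups were separate and the treated libraries differed little among themselves. *C3* fell by 4.23 (SE 0.0585, adjusted p = 9.59e-14) and then fell by 0.98 (SE 0.0545, adjusted p = 2.76e-06), just short of 2-fold. *C4b* fell by 3.24 (SE 0.0614, adjusted p = 7.97e-13) and then fell by 0.59 (SE 0.0620, adjusted p = 1.67e-04). In Both, *C3* was 5.21 below Stem on the log2 scale.

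The 2 proteases that open the classical pathway fell with them. *C1s1* was at 25100, 31420 and 26250 normalized counts in the Stem libraries, 4066, 4216 and 4057 in TGF-β and 2712, 2985 and 2790 in Both. It fell by 2.75 (SE 0.0762, adjusted p = 1.50e-11) and then fell by 0.54 (SE 0.0736, adjusted p = 8.66e-04). *C1ra* was at 7442 ± 565 in Stem and dropped to 989 ± 36.1 with TGF-β1 and 850 ± 61.7 with PFI-3 as well (SD, n = 3). Its fall of 2.91 to TGF-β passed the test (SE 0.0658, adjusted p = 2.78e-12), whereas its further log2 change of -0.22 did not (95% interval -0.37 to -0.07, adjusted p = 0.0675), although the groups did not overlap and 8 of 17 alternative fits called it.

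*Cfb*, factor B of the alternative pathway, was at 299.4, 399.9 and 325.6 normalized counts in the Stem libraries, 50.72, 45.64 and 52.72 in TGF-β and 35.11, 28.62 and 21.06 in Both. It fell by 2.78 (SE 0.158, adjusted p = 9.54e-09) and again fell by 0.81 (SE 0.218, adjusted p = 0.0387). The second call was lost when Stem replicate 3, any TGF-β library, Both replicate 2 or Both replicate 3 was left out. The annotation lists a read-through gene, *Gm20547*, that covers 2246 of the 2825 exon bases of *Cfb* on the same strand, so how shared reads were assigned bears on the *Cfb* level. *Gm20547* itself had a mean of 0.349 normalized counts among Stem libraries and 0 among the treated ones.

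The complement inhibitors did not move as a group. *Serping1*, which encodes C1 inhibitor, was at 20030, 20450 and 21030 normalized counts in the Stem libraries, 4019, 3989 and 3806 in TGF-β and 4693, 4218 and 4618 in Both. It fell by 2.38 (SE 0.0480, adjusted p = 1.23e-12) and rose by 0.20 with PFI-3 (SE 0.0464, adjusted p = 0.0220), a call lost when any TGF-β library, Both replicate 1 or Both replicate 3 was left out. *Serping1* and *C1s1*, inhibitor and target, thus changed in opposite directions between TGF-β and Both, and the count ratio of *C1s1* to *Serping1* went from 1.35 ± 0.165 (Stem) and 1.04 ± 0.0290 (TGF-β) to 0.630 ± 0.0686 (Both; SD, n = 3). The ratio of *C3* to *Serping1* was 2.66 ± 0.161, 0.740 ± 0.0286 and 0.327 ± 0.0182, with no overlap between groups.

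*Cd55*, which speeds the decay of C3 convertases on the cell's own surface, was at 4011, 3227 and 3678 normalized counts in the Stem libraries, 2387, 2426 and 2476 in TGF-β and 2751, 2620 and 2841 in Both. It fell by 0.58 (SE 0.0661, adjusted p = 5.66e-06), and its log2 change with PFI-3 was 0.17 (95% interval 0.03 to 0.32, adjusted p = 0.135; called in 5 of 17 alternative fits). *Cd59a*, which blocks the membrane attack complex, was at 179, 206.5 and 203.4 in Stem, 278.4, 239.3 and 239.2 in TGF-β and 172.9, 206.3 and 207.1 in Both. Of the 8 tested complement genes among the 41 it was the one that rose in TGF-β, by 0.36 (SE 0.106, adjusted p = 8.41e-03), and it fell back by 0.37 in Both (SE 0.105, adjusted p = 0.0494), to a log2 difference from Stem of -0.01 (95% interval -0.24 to 0.23). The first call was lost with scaling by total counts (0.24), and the second was lost in 8 of 17 alternative fits, among them those without any 1 of the TGF-β or Both libraries.

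**Figure D3:**
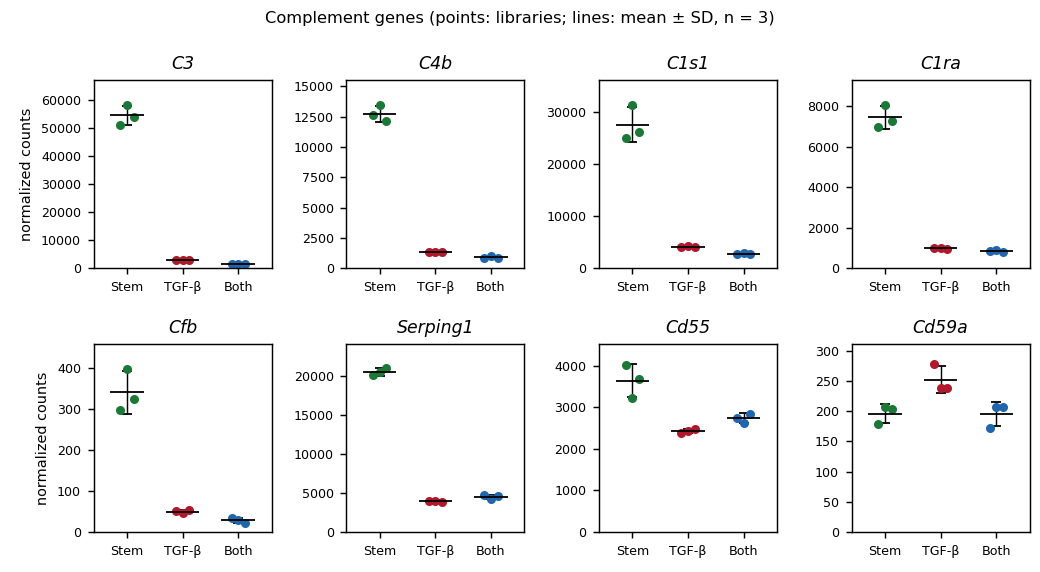
Normalized counts of the 8 tested complement genes in Stem, TGF-β and Both, with 1 point per library and lines for the mean ± SD (n = 3). *C3*, *C4b*, *C1s1*, *C1ra*, *Cfb* and *Serping1* fall steeply from Stem to TGF-β, *Cd55* falls from 3639 to 2430, and *Cd59a* is higher in TGF-β (252.3) than in Stem (196.3) or Both (195.4).

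Near-identical copies of some complement and acute phase genes could share their reads, and how reads with several alignments were counted is not stated. The copies were counted at low levels, with means of 9.97 normalized counts in Stem for *C4a*, 8.22 for *C1rb*, 30.0 for *C1s2* and 12.5 for *Cd59b*, and 0 for *Saa2*. The exons of 8 of the 41 genes, among them *C1s1*, *Icam1* and *Cxcl16*, overlap another gene on the opposite strand by 61 to 576 bases, and the strand setting of the counting is not given.

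All 4 tested acute phase genes were called lower in TGF-β than in Stem, where 14.5% of all tested genes were. From TGF-β to Both 2 of them were called lower again, where 0.47% of all tested genes were. *Saa3*, the serum amyloid A made outside the liver, was at 972.6, 792.1 and 764.9 normalized counts in the Stem libraries, 181.3, 153.1 and 187.5 in TGF-β and 69.33, 77.98 and 75.48 in Both. *Lcn2*, which binds bacterial siderophores, was at 86.89, 86.93 and 78.97, then 20.5, 24.34 and 15.62, then 9.904, 4.935 and 7.022. The groups were separate for both genes. *Saa3* fell by 2.28 (SE 0.109, adjusted p = 1.82e-09) and again fell by 1.23 (SE 0.138, adjusted p = 2.40e-04). *Lcn2* fell by 2.06 (SE 0.203, adjusted p = 1.53e-06) and again fell by 1.44 (SE 0.302, adjusted p = 0.0120), and the second call was lost without TGF-β replicate 2 (-1.28, adjusted p = 0.0617).

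*Hp* and *Ptx3* did not fall further. *Hp*, the hemoglobin-binding haptoglobin, was at 2825, 2585 and 2568 normalized counts in the Stem libraries, 331.3, 303.2 and 274.3 in TGF-β and 281.8, 286.2 and 337.9 in Both. It fell by 3.14 (SE 0.0811, adjusted p = 8.11e-12) and then had a log2 change of -0.00 with a 95% interval from -0.20 to 0.20. *Ptx3*, a pentraxin that binds C1q and microbes, was at 1776, 2019 and 1999 in Stem, 403.6, 581.1 and 460.8 in TGF-β and 586.1, 737.3 and 610.9 in Both. It fell by 2.00 (SE 0.118, adjusted p = 1.26e-08), and its change of 0.42 with PFI-3 (95% interval 0.15 to 0.68) did not pass the test (adjusted p = 0.0560) but was called in 8 of 17 alternative fits.

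Of the 5 NF-κB components or inhibitors, 4 were lower in TGF-β than in Stem at the adjusted p alone, where 37.7% of all tested genes were, and 1 of them past 2-fold, where 14.5% were. *Nfkbia*, whose product IκBα retains NF-κB in the cytoplasm and which is itself induced by NF-κB, was at 984.1, 713.9 and 702.1 normalized counts in the Stem libraries, 382, 315.4 and 357.3 in TGF-β and 392.6, 362.2 and 414.3 in Both. It was the gene called past 2-fold, and it fell by 1.19 (SE 0.126, adjusted p = 3.04e-06). *Tnfaip3*, which encodes the ubiquitin-editing inhibitor A20, fell by 0.83 (SE 0.0735, adjusted p = 5.56e-07), from 557.9 ± 35.1 to 313.3 ± 11.0 (SD, n = 3). *Nfkb1*, the p105 precursor of p50, went from 2907, 2840 and 2916 to 1675, 1721 and 1728 and fell by 0.76 (SE 0.0396, adjusted p = 4.21e-09).

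*Nfkb2*, the p100 precursor of p52, fell by 0.17 (SE 0.0394, adjusted p = 2.21e-03), from 1890 ± 64.8 to 1684 ± 16.1 (SD, n = 3). *Rela*, the transactivating subunit p65, was at 2053, 1847 and 1943 in Stem, 2213, 2016 and 2081 in TGF-β and 2194, 2089 and 2271 in Both. Its Stem and TGF-β libraries overlapped, and its log2 change of 0.11 did not pass the test (SE 0.0527, adjusted p = 0.0754). In Both it was 0.17 above Stem (SE 0.0525, adjusted p = 0.0131). With PFI-3 added none of the 5 passed the test, and the 95% intervals of the log2 change were -0.14 to 0.44 for *Nfkbia*, -0.05 to 0.12 for *Nfkb1*, -0.10 to 0.07 for *Nfkb2*, -0.06 to 0.17 for *Rela* and -0.28 to 0.05 for *Tnfaip3*.

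**Figure D4:**
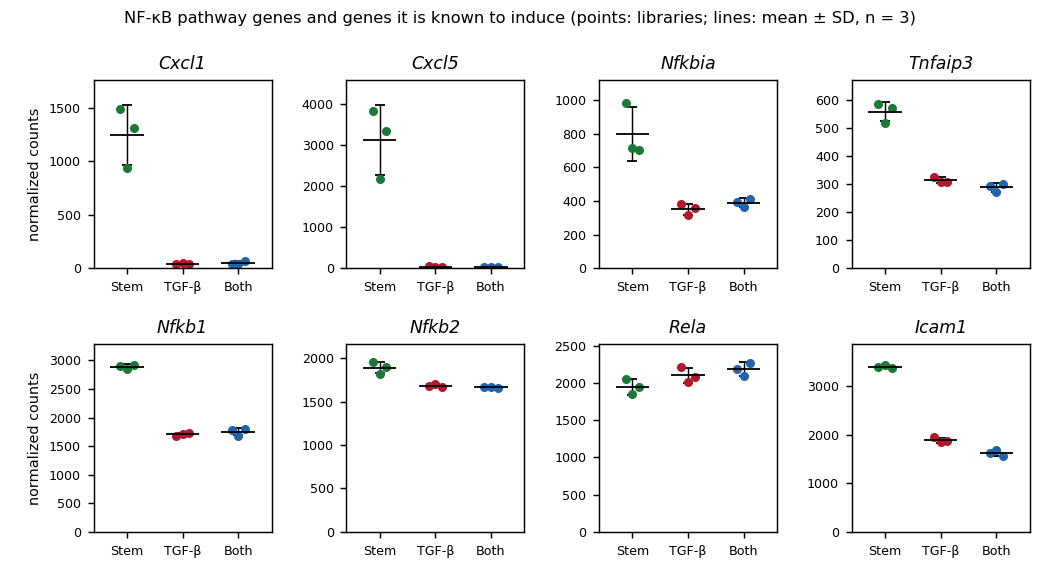
Normalized counts of 5 NF-κB pathway genes and of *Cxcl1*, *Cxcl5* and *Icam1*, which the pathway is known to induce, in Stem, TGF-β and Both, with 1 point per library and lines for the mean ± SD (n = 3). *Cxcl1* and *Cxcl5* are near 0 in both treated groups on these axes, *Nfkbia*, *Tnfaip3* and *Nfkb1* keep a lower level, and *Rela* stays between 1847 and 2271 in all 9 libraries.

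The 2 adhesion molecules that leukocyte integrins bind fell by less than 2-fold from Stem to TGF-β. *Icam1* was at 3393, 3434 and 3373 normalized counts in the Stem libraries, 1953, 1856 and 1870 in TGF-β and 1633, 1686 and 1573 in Both, with no overlap. It fell by 0.85 (SE 0.0397, adjusted p = 1.57e-09) and again fell by 0.22 (SE 0.0404, adjusted p = 0.00643), and it was 1.06 below Stem in Both, past the 2-fold line. *Vcam1* was at 23530, 30800 and 26950 in Stem, 19270, 23080 and 19910 in TGF-β and 16690, 19650 and 17160 in Both. It fell by 0.38 (SE 0.0967, adjusted p = 3.26e-03), and its change of -0.22 with PFI-3 did not pass the test (95% interval -0.43 to -0.01, adjusted p = 0.191) but was called in 2 of 17 alternative fits.

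Per kilobase of exon, the order of levels among the 41 genes changed between the groups. In Stem the highest were *Cxcl12* (21690 normalized counts per kilobase), *C3* (10620), *Serping1* (8820), *C1s1* (8817) and *Vcam1* (3054), and *Serping1* and *C1s1* did not differ beyond their spread. In TGF-β *Cxcl12* (6525) was followed by *Vcam1* (2340), *Ackr3* (1902), *Serping1* (1694) and *C1s1* (1314), with *C3* at 566.5. In Both *Ackr3* (2716) stood above *Vcam1* (2010) and *Serping1* (1939), and *C3* was at 286.2. Among the 14843 genes ranked by level per kilobase, *C3* was at percentile 99.5 for Stem, 81.0 for TGF-β and 67.0 for Both, *Cxcl5* at 94.7, 24.2 and 21.4, and *Ackr3* at 81.1, 94.8 and 96.6.

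**Figure D5:**
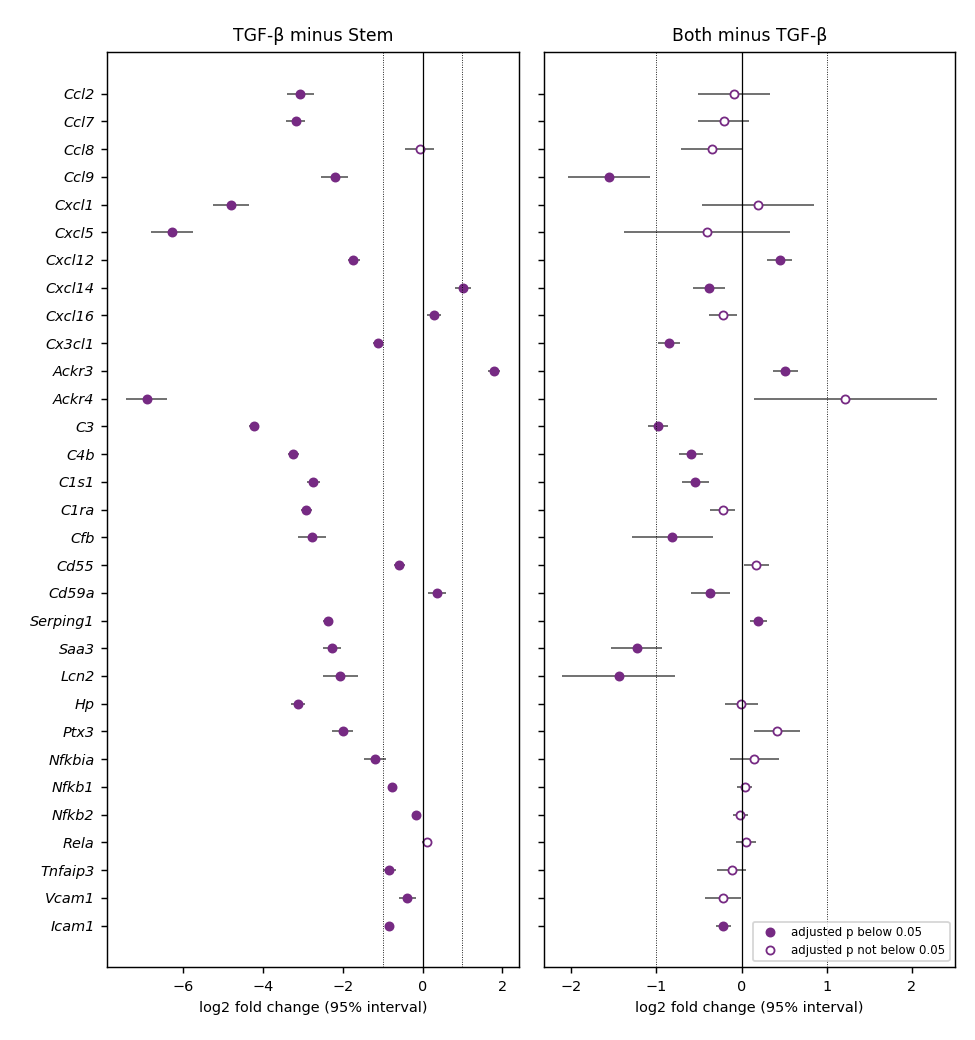
Log2 fold changes of 31 tested genes from Stem to TGF-β (left) and from TGF-β to Both (right), with 95% intervals from the edgeR fit, filled where the adjusted p was below 0.05 and dotted lines at 2-fold; the panels differ in scale and *Ccl11* is left out because it is at the floor in TGF-β. On the left most genes lie left of -1, and on the right only *Ccl9*, *Saa3* and *Lcn2* do so with a filled point. *Ackr4* entered the left panel only through its Stem level.

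Other genes of the same pathways were counted from lists fixed apart from the 41. Beside their counts stand the shares of all tested genes given above, 14.5% called lower and 10.6% called higher from Stem to TGF-β. Of 20 other chemokines 4 could be tested, with 1 called higher and 1 lower in TGF-β, and each of these had passed the filter only through the group where it was high. The one that was higher, *Ccl17*, a ligand of CCR4, was at 2.094, 3.26 and 3.246 normalized counts in the Stem libraries, which is the floor, 38.85, 53.75 and 46.86 in TGF-β and 8.103, 19.74 and 18.43 in Both. Because the filter kept it for its TGF-β level, no test is given for it. Of 21 chemokine receptors 3 could be tested, 1 that passed the filter only through TGF-β was called higher there than in Stem, and with PFI-3 0 were called by edgeR, by DESeq2 or at an unadjusted p below 0.05. Most receptors of these ligands were at or under the floor in the same libraries.

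Of 35 other complement genes 18 were tested, 11 were called lower and 2 higher in TGF-β, the higher share being near that of all tested genes, and 0 were called between TGF-β and Both past 2-fold, by edgeR or DESeq2, with 1 higher and 2 lower at the adjusted p alone and 2 higher and 3 lower at an unadjusted p below 0.05. At the adjusted p alone 3.54% of all tested genes were higher and 5.38% lower from TGF-β to Both. Of the 11 called lower in TGF-β, 2 passed the filter only through Stem, and 1 of the 2 higher did not pass it there. *C7*, a component of the membrane attack complex, fell by 6.94 (SE 0.119, adjusted p = 3.99e-13), from 1482 ± 29.2 to 11.9 ± 1.57 normalized counts (SD, n = 3). *Colec12*, a scavenger receptor collectin, fell by 3.78 (SE 0.0791, adjusted p = 1.59e-12), from 55290 ± 5342 to 4017 ± 248. Of 18 other acute phase genes 6 were tested and called lower in TGF-β, but *Itih3* and *Itih4* passed the filter only through Stem, where they were high. *Steap4*, a metalloreductase, fell by 4.25 (SE 0.0931) and *Serpina3g*, a serpin, fell by 2.90 (SE 0.216). *Serpina3n*, a related serpin, was called again in Both, where it went from 2861, 3254 and 2632 to 1171, 1587 and 1503 and fell by 1.04 (SE 0.0990, adjusted p = 9.66e-05).

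Of 36 other genes of NF-κB signaling 35 were tested, and 6 were called lower and 1 higher in TGF-β. The share of lower genes was near that of all tested genes, and the 1 that was higher passed the filter only through TGF-β. *Il1r1*, the receptor through which interleukin-1 activates NF-κB, fell by 4.08 (SE 0.0416, adjusted p = 2.47e-14), from 16810 ± 406 to 994.9 ± 0.990 (SD, n = 3), and rose by 0.41 with PFI-3 (SE 0.0401, adjusted p = 1.06e-04), to 1326 ± 40.9. *Nfkbiz*, a nuclear IκB protein, fell by 1.84 (SE 0.0611, adjusted p = 6.96e-11) and rose by 0.48 (SE 0.0622, adjusted p = 6.39e-04). Of these 35 genes 0 were called between TGF-β and Both past 2-fold, by edgeR or DESeq2. At the adjusted p alone 3 were higher and 1 lower, against 3.54% and 5.38% of all tested genes. At an unadjusted p below 0.05, 9 were higher and 1 lower.

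Of 13 inflammatory cytokines and antagonists 6 were tested, 3 were called lower in TGF-β, 2 of which passed the filter only through Stem, and *Tnfsf13b*, the B cell factor BAFF, fell by 2.64 (SE 0.167, adjusted p = 2.59e-08). *Il1rn*, the interleukin-1 receptor antagonist, was at 106.8, 101.4 and 81.03 in TGF-β and 47.72, 45.4 and 40.37 in Both, a fall of 1.11 (SE 0.205, adjusted p = 5.87e-03). *Tnf*, *Il1a* and *Il1b*, named here after their values were seen, had 0 counts in all 9 libraries. Of 11 other adhesion genes 8 were tested, 3 were called higher and 2 lower in TGF-β, 1 of the lower having passed the filter only through Stem. With PFI-3 0 were called past 2-fold by edgeR or DESeq2. At the adjusted p alone 0 were higher and 3 lower, against 3.54% and 5.38% of all tested genes. The counts at an unadjusted p below 0.05 were also 0 higher and 3 lower. *F11r*, which encodes the junction protein JAM-A, rose by 1.72 (SE 0.0481, adjusted p = 1.56e-11) and *Mcam* rose by 1.28 (SE 0.153, adjusted p = 8.74e-06).

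Markers of other cell types were read beside these genes because leukocytes, endothelium and liver also make chemokines, complement or acute phase proteins. The 14 leukocyte markers summed to between 507.4 and 610.3 normalized counts in the Stem libraries, 319.5 and 349.6 in TGF-β and 446.1 and 453.8 in Both, and 4 of the 14 were tested. *Adgre1*, *Itgam*, *Aif1*, *Tyrobp*, *Cd3e* and *Ms4a1* were at 0 in every library, *Ptprc*, the pan-leukocyte CD45, had means of 0, 2.37 and 1.81, and most of the sum was *Cd14*, *Lyz2* and *Csf1r*. From Stem to TGF-β *Cd14* fell by 1.57 (adjusted p = 4.22e-08, means of 408.3 and 137.0). *Cd68* had means of 3.53 in Stem and 13.2 in TGF-β, but it did not pass the filter in Stem, so no test is given for it. *Csf1r* rose in TGF-β (1.41, adjusted p = 2.07e-04) and again in Both (0.86, adjusted p = 0.0149). The sum of 9 hepatocyte markers was between 243.4 and 284.5 in Stem, 22.31 and 28.06 in TGF-β and 18.75 and 27.21 in Both, with *Ahsg* at means of 259.6, 13.0 and 12.8 and *Apoa2* at 5.38, 10.6 and 9.74, while *Alb*, *Ttr* and *Apoa1* had means of at most 0.585 in any group. The labels' protocol names hepatic tissue as the source of the RNA. *Alb*, *Ttr* and *Apoa1* were at or near 0 while *Ahsg* was not, and the source was not tested.

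The 10 endothelial markers summed to between 211.9 and 450.2 normalized counts in the Stem libraries, 1381 and 1554 in TGF-β and 1097 and 1270 in Both, with *Erg* at means of 100.4, 1346 and 1029. *Erg* was called higher in TGF-β than in Stem and *Tek* lower. *Kdr* was higher and *Emcn* lower too, but *Kdr* did not pass the filter in Stem and *Emcn* passed only there. *Pecam1* and *Cdh5* had means of at most 8.80 in any group. The 5 epithelial markers summed to at most 32.4 in any library. *Ly6a*, which encodes Sca1, and 6 of the 7 other adventitial progenitor markers were called lower in TGF-β than in Stem, while the remaining one, *Pi16*, was called higher (means of 507.6 and 5771), and the list's sum was between 94540 and 110900 in Stem, 20960 and 21670 in TGF-β and 16790 and 18130 in Both. Between TGF-β and Both 2 of the 8 progenitor markers were called lower past 2-fold by edgeR and by DESeq2, and 0 were called higher. Of all tested genes 0.47% were called lower and 0.161% higher there by edgeR. From Stem to TGF-β 14.5% of all tested genes were called lower and 10.6% higher. The part of these marker changes in the results above was not tested.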

How the data were processed

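RNA-Seq was measured in 9 libraries of AdvSca1-SM cells, 3 per group, and groups were taken from the labels. The values are raw counts of reads for each Ensembl gene, which the authors deposited as 1 column per library and did not normalize. The submitters' processing notes name HISAT2 2.2.1, SAMtools 1.13, HTSeq 0.11.3 and GRCm39, whereas the study's methods name STAR, and the strand and multi-mapping settings are not given in the sources used here. All 41 symbols were matched to Ensembl identifiers. Exon lengths and overlaps came from an annotation of another build (GRCm38), so no coordinates are given except those of the RefSeq promoters.

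Genes were filtered by filterByExpr, scaled by TMM and tested by the quasi-likelihood method of edgeR 4.0.16 (R 4.3.3; limma 3.58.1). A single model of all 9 libraries had a term for group and no other, with a prior count of 0.125 and Benjamini-Hochberg adjustment. The fit had a common dispersion of 0.00376, a biological coefficient of variation of 6.13%. The precision rests on 3 libraries per group, and an exact permutation test of 3 against 3 was not used because it cannot pass the threshold. Standard errors and 95% intervals were derived from the fit's F statistic and its degrees of freedom. The edgeR fit, DESeq2 and the replicate block were also run on simulated data with known changes, and the other alternatives were not. The members, the lists and the tests were chosen with earlier results of these data known. Values in every library were given for genes called between TGF-β and Both and for those with the largest changes or falls in each role. Genes of the other pathway lists were named where they were called between TGF-β and Both past 2-fold. *Ccl17* was among them with no test, since only its TGF-β libraries passed the filter. Otherwise genes were named from among the 2 largest rises and 2 largest falls called between Stem and TGF-β. These had at least 100 mean normalized counts. Cell type markers were not named by this rule.

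The alternatives were DESeq2 1.42.0, scaling by its size factors or by total counts, an unfiltered table, a minimum mean of 10 counts, models of the 6 libraries at hand, a replicate block, a prior count of 2, the TREAT test against 2-fold, no fold-change minimum, and leaving out each library in turn. The protein sequences of the chemokines were not analysed here.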

Additional observations from a re-analysis of the deposited data

How the results depend on the processing

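Of 544 alternative values for the 32 genes between Stem and TGF-β, 536 kept their direction and side of the threshold, and of 526 for 31 genes between TGF-β and Both, 464 did. The called genes between Stem and TGF-β numbered 19 to 26 lower, and higher (2 in the report) 1 with total counts, with a mean of at least 10 counts or with TREAT, 4 without the fold-change minimum, and 1 to 2 when a library was left out, the 1 without Stem replicate 1 or TGF-β replicate 1. Between TGF-β and Both, no fold-change minimum gave 3 higher and 11 lower, and TREAT gave 0 lower. At the adjusted p alone, counts added after the data were seen, the 3 higher became 5 with no filter, 5 in a fit of the 6 libraries, 0 with TREAT and 2 to 5 when a library was left out, the 5 without Stem replicate 1 or Stem replicate 2. The 11 lower became 0 with TREAT and 8 to 13 when a library was left out. Between Stem and Both the 1 higher became 3 without the fold-change minimum. The replicate block gave 5 higher at the adjusted p alone between TGF-β and Both, and 43 higher and 77 lower over all genes, against 24 and 70. Whether replicate numbers pair the libraries is not settled. Deviations of same-numbered libraries correlated between -0.0539 and 0.196, and those of other pairs between -0.181 and 0.167. For replicate 2 the values were 0.166 (Stem and TGF-β), 0.196 (Stem and Both) and 0.139 (TGF-β and Both). Total counts moved the all-gene median between Stem and TGF-β to -0.12, and *Rela* to -0.0100. Signs of values that did not pass turned for *Ccl8* between Stem and TGF-β (-0.21 to 0.13 when a library was left out) and, between TGF-β and Both, for *Ccl2* (-0.197 to 0.069), *Cxcl1* (-0.0797 to 0.312) and *Hp* (-0.0912 to 0.0659). *Hp* was 0.0109 with total counts, 9.453e-04 with no filter, 0.00137 with a mean of at least 10 counts, 2.676e-04 with the replicate block and 0.00335 in the 6 libraries. The cause of these changes was not tested. Genes near 3 counts per library, such as *Ackr4* and *Ccl11* in the treated groups, are limited by depth.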
